A study of Homo sapiens with 34 samples.

Results

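The genes described here encode the subunits of the human Mediator complex, including the paralogous kinases *CDK8* and *CDK19*. They were taken by name from the known subunit list, with no measured value entering the rule, though the rule was set with earlier results of these data known, and comprised 33 genes out of 17587 listed in at least 1 of 6 deposited tables. The list held 7 genes of the kinase module (*CDK8*, *CDK19*, *CCNC*, *MED12*, *MED12L*, *MED13* and *MED13L*) and 26 genes of the core complex. All but *MED12L* were listed in every table, so that 32 of the 33 entered the tests over cell lines. *CDK8* was singled out by the study on these same samples, so its direction below is not independent evidence.

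Mediator is the large coactivator that carries signals from transcription factors bound at enhancers to RNA polymerase II at the promoter. Its core consists of a head and a middle that contact the polymerase, a tail that contacts activators, and the scaffold subunit MED14 that holds them together. A separable kinase module, made of CDK8 or CDK19 with cyclin C, MED12 or MED12L and MED13 or MED13L, binds the core reversibly, competes with polymerase binding and phosphorylates transcription factors. In each pair of paralogs only a single member sits in a given complex.

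RNA was sequenced from 34 samples of B-cell acute lymphoblastic leukaemia cell lines, in 12 groups. NALM-6 carries the fusion ETV6-PDGFRB, BV-173 carries BCR-ABL and RS4;11 carries MLL-AF4, and values given for the lines without a name follow the order NALM-6, RS4;11, BV-173. In the knockdown arm, cells carried an shRNA against *CCND3*, the gene of cyclin D3, or a scrambled shRNA, delivered in a lentiviral vector with a TagRFP reporter, and transduced cells were isolated on day 4. In the inhibitor arm, cells received 1 µM palbociclib, an inhibitor of CDK4 and CDK6, or DMSO for 3 days. Groups held 3 samples except NALM-6 *CCND3* shRNA and BV-173 DMSO, which held 2. Each arm had its own controls, and the knockdown rests on 1 shRNA sequence. The tables give 1 level per group on a count scale, computed and scaled by the authors within each pair of groups, so levels carry no spread between samples. Percentages of control are ratios of these levels, which the authors' fit may have drawn toward no change. The spread used below is that between the 3 cell lines. The words rose and fell are kept for genes with an adjusted p under 0.1 in limma's moderated test of the mean log2 ratio over the 3 lines, fitted on the 13307 genes listed in all 6 tables. Within a line, a ratio past 1.5-fold is counted without a test.

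The targeted transcript checked the labels. *CCND3* stood at 24.2%, 20.7% and 31.1% of control after knockdown, and at 76.0% to 81.8% after palbociclib. The levels of a group summed to between 17810468 and 20756235. All 8 B-lineage markers were listed in every table, with levels from 1180 to 22781. Of the 4 T-cell markers 1 was listed in every table, and those listed summed to at most 7.70. Of the 4 epithelial markers 2 were listed in every table, and those listed summed to at most 38.8. The 4 myeloid markers summed to between 88.4 and 559.6, of which *CSF1R* gave up to 513, and their sum in BV-173 was 199.9 with DMSO and 557.0 with palbociclib. Whether such marker changes had a part in any result below was not tested. In bulk RNA of this kind, fewer cells with a transcript and less transcript per cell cannot be told apart.

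*CDK8* (chr13:26254129-26405238, plus strand of GRCh38) and *CDK19* (chr6:110609978-110815855, minus strand) are close relatives, and the stretch of 60 coding bases printed here shows how far their transcripts can be told apart by reads. It was read from hg38 by the GENCODE annotation, covers coding positions 548 to 607 of both canonical transcripts within 1 exon, and holds the longest run of bases that the coding sequences share, 19 bases. Capitals mark the 11 positions that differ, and the other 49 are identical.
CDK8, chr13:26385244-26385303, plus strand: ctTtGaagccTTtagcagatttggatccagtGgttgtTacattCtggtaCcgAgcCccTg
CDK19, chr6:110632069-110632128, minus strand: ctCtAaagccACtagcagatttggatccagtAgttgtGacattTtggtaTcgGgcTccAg
Over the coding sequences, 1054 of 1390 aligned bases (75.8%) were identical. The full transcripts of 3065 and 6399 bases shared no run longer than 19 bases, and none of the 3041 words of 25 bases in the *CDK8* transcript occurred in that of *CDK19*. *MED12* and *MED12L* were identical at 67.0% of aligned coding bases and *MED13* and *MED13L* at 65.1%, with longest shared runs of 21 and 20 bases. Read length was not given in the sources used here.

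The complex was expressed in every line, and its members differed in level per kilobase of gene length. Over the 6 control groups, with scrambled shRNA or DMSO, the median level per kilobase of the 26 core genes ranged from 259 to 356. That of the kinase module genes listed ranged from 216 to 292, against 105 to 120 for all genes. *MED30*, a metazoan subunit of the head-tail junction, had the highest level per kilobase of all members in both BV-173 controls (1609 and 1575), and 410 and 540 in the NALM-6 controls. *MED15*, a tail subunit that contacts activators, stood at 649 to 1110 per kilobase. At the lower end stood *MED31*, a small middle subunit, at 41.0 to 91.1 per kilobase, and *CDK19* at 44.4 to 132.9 per kilobase. *MED12L* was close to 0, at 0.0195 to 0.0811 per kilobase. Its paralog *MED12* stood at 234 to 271 per kilobase in the same groups. These levels were scaled separately in each table, and differences between lines were not tested.

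**Figure D1:**
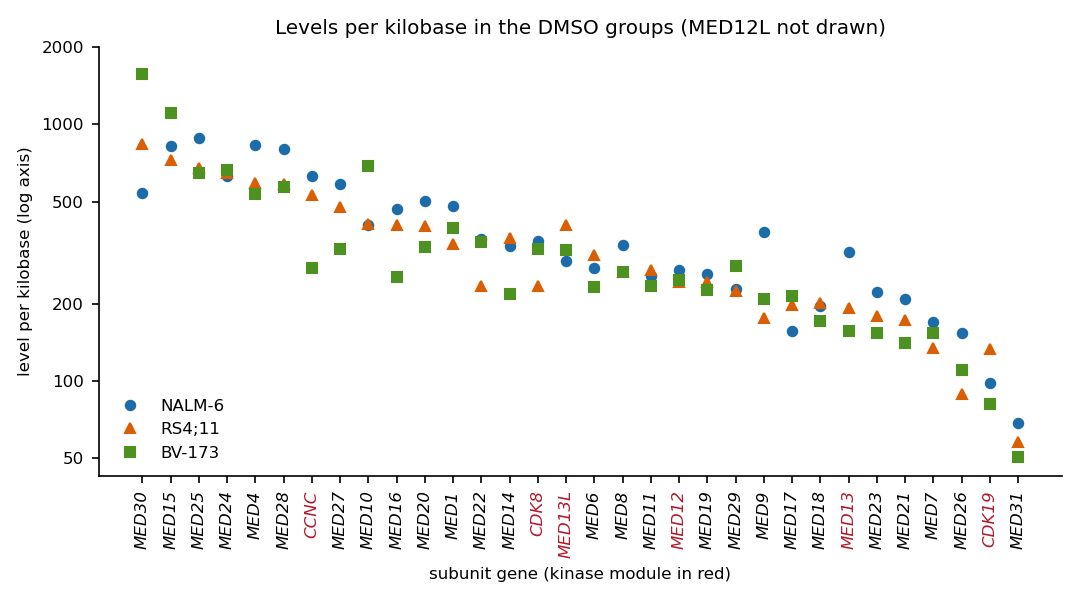
Level per kilobase of gene length (log axis) of 32 Mediator genes in the DMSO groups of the 3 lines, ordered by their median, with kinase module genes named in red and *MED12L* left out (at most 0.0437). *MED30* in BV-173 is highest at 1575 and *CDK19* and *MED31* lie at the lower end in all 3 lines.

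Within the kinase module, both kinase genes fell after *CCND3* knockdown, and none of the other 4 genes tested passed. The level of *CDK8* was 1007 with scrambled shRNA and 482.9 with *CCND3* shRNA in NALM-6, 599 and 279.5 in RS4;11, and 751 and 466 in BV-173. It stood at 47.9%, 46.7% and 62.1% of control, lower in 3 of 3 lines. The level of *CDK19* was 716 and 388 in NALM-6, 677 and 406 in RS4;11, and 270.3 and 174 in BV-173. It stood at 54.2%, 60.04% and 64.2% of control, and the treated level lay under its own control in every line. *CDK8* fell by 0.95 on the log2 scale over the 3 lines (SE 0.14, 95% interval -1.30 to -0.60, adjusted p = 0.0742) and *CDK19* fell by 0.75 (SE 0.12, interval -1.06 to -0.45, adjusted p = 0.0742). This adjusted p is the lowest of any gene in the knockdown fit and is a tie, shared with *CCND3* among others. The unadjusted p from limma was 0.000593 for *CDK8* and 0.00105 for *CDK19*. Among all 13307 genes tested, 2.44% had a lower mean than *CDK8* and 3.69% a lower mean than *CDK19*. Both kinases lost the call when NALM-6 was left out (adjusted p = 0.149 for *CDK8* and 0.181 for *CDK19*) or RS4;11 was left out (0.193 and 0.209), where no gene at all passed.

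**Figure D2:**
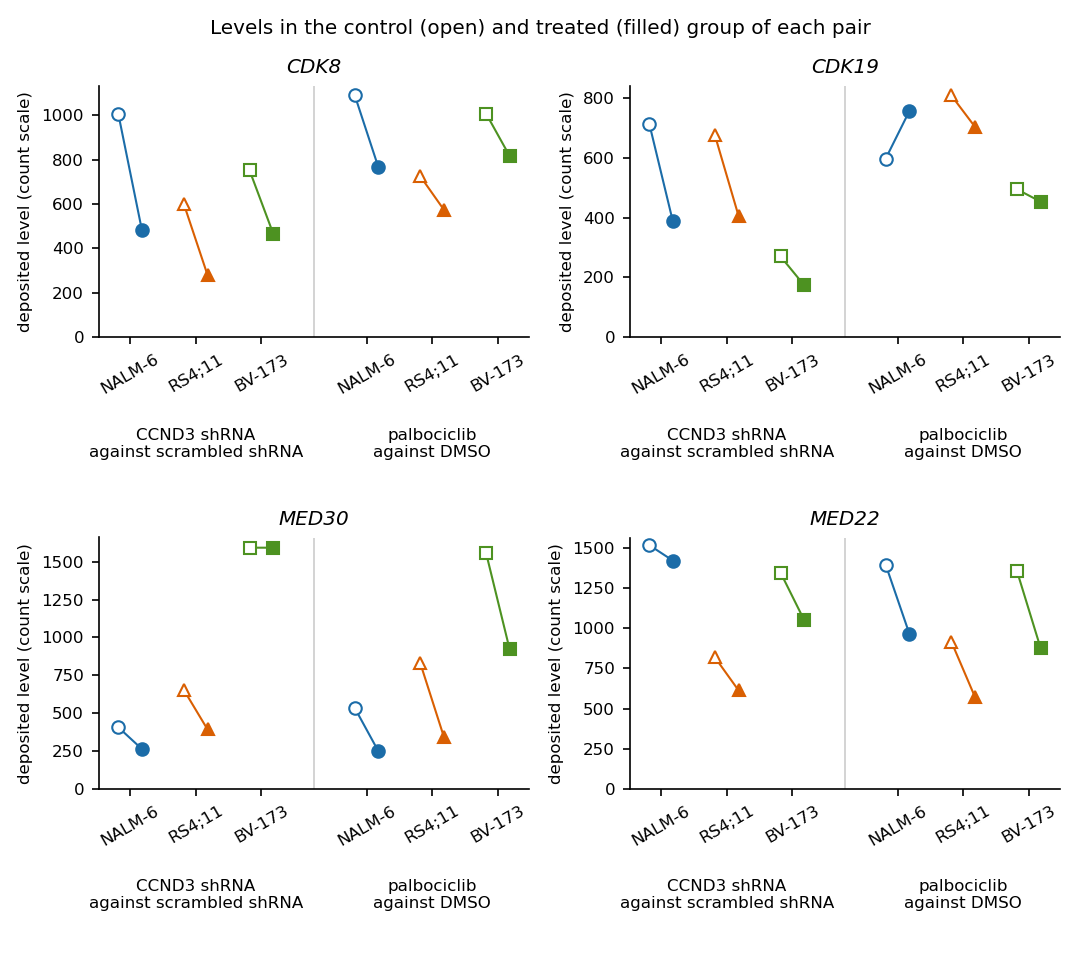
Deposited level on a count scale (1 value per group) of *CDK8*, *CDK19*, *MED30* and *MED22* in the control (open symbol) and treated (filled symbol) group of each pair, for NALM-6 as circles, RS4;11 as triangles and BV-173 as squares. *CDK8* and *CDK19* lie at 46.7% to 64.2% of control after knockdown in all 3 lines, while *MED30* and *MED22* lie at 41.0% to 69.2% of control after palbociclib.

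The partners of the kinases stood at 77.2% to 119.7% of control in single lines. *CCNC*, the cyclin that activates both kinases, had levels of 1527 and 1266 with scrambled and *CCND3* shRNA in NALM-6, 912 and 854 in RS4;11, and 602 and 639 in BV-173. Its mean log2 ratio was -0.09 (SE 0.13, 95% interval -0.42 to 0.23, adjusted p = 0.726), and the 3 lines differed in sign. *MED12*, which links cyclin C to the rest of the module and stimulates kinase activity, stood at 119.7%, 105.6% and 77.2% of control (mean log2 ratio -0.01, interval -0.41 to 0.39). *MED13*, which tethers the module to the core, had a mean log2 ratio of -0.03 (interval -0.37 to 0.31), and its paralog *MED13L* had one of -0.03 (interval -0.34 to 0.27). *MED12L* stood at 96.2% to 108.2% of control, at levels under 1 that allow no reading.

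Counted in single lines, few members passed 1.5-fold after knockdown, and none upward. In NALM-6 3 of 33 members (9.09%) were lower by that fold, *CDK8*, *CDK19* and *MED30*, beside 8.47% of all listed genes. The same 3 genes were lower in RS4;11, beside 9.72% of all genes, and *CDK8* and *CDK19* were lower in BV-173 (6.06% of members), beside 4.78% of all genes. No member was higher by 1.5-fold, whereas 7.82%, 9.73% and 3.32% of all genes were so in the 3 lines. The share of members called lower was thus near that of all genes in each line. Over the 3 lines, 2 of 32 members (6.25%) fell, beside 4.15% of all genes, and 0 rose, beside 2.09% of all genes. At an unadjusted p under 0.05, limma listed 4 of 32 members (12.5%), the kinases together with *MED28* and *MED30*, beside 21.8% of all genes. A ratio under 1 in all 3 lines was seen for 8 of 33 members (24.2%), beside 22.8% of all genes, and a ratio above 1 for 7 members (21.2%), beside 22.2%. The 8 include *MED30*, which in BV-173 stood at 99.98% of control and so was level there.

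The 26 core genes had a median log2 ratio of -0.08 over the 3 lines after knockdown, with values from -0.46 to 0.35, against 0.0037 for all genes. The median of the 6 kinase module genes tested was -0.06, and without the kinases the module genes *CCNC*, *MED12*, *MED13* and *MED13L* ranged from -0.37 to 0.26 in single lines. By position in the complex, the medians over 3 lines were -0.11 for the 7 head genes, -0.08 for the 9 middle genes, 0.05 for the 5 tail genes and 0.01 for the 4 genes of the head-tail junction, and the scaffold gene *MED14* stood at -0.15. The lowest core gene was *MED30*, with levels of 406 with scrambled and 262 with *CCND3* shRNA in NALM-6, 652 and 391 in RS4;11, and 1593.3 and 1593.0 in BV-173. It was lower in NALM-6 and RS4;11 and level in BV-173, with a mean log2 ratio of -0.46 (SE 0.18, adjusted p = 0.218), and without BV-173 it passed (-0.68, adjusted p = 0.0997). The highest was *MED28*, another subunit of the junction, which stood at 149.5%, 120.8% and 115.2% of control (mean log2 ratio 0.35, SE 0.14, adjusted p = 0.211). The tail genes *MED16* and *MED24* had mean log2 ratios of 0.29 (adjusted p = 0.287) and 0.27 (adjusted p = 0.291), each above control in 3 of 3 lines. The remaining 21 core genes had means between -0.29 (*MED22*) and 0.23 (*MED26*), with adjusted p of 0.266 or more.

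**Figure D3:**
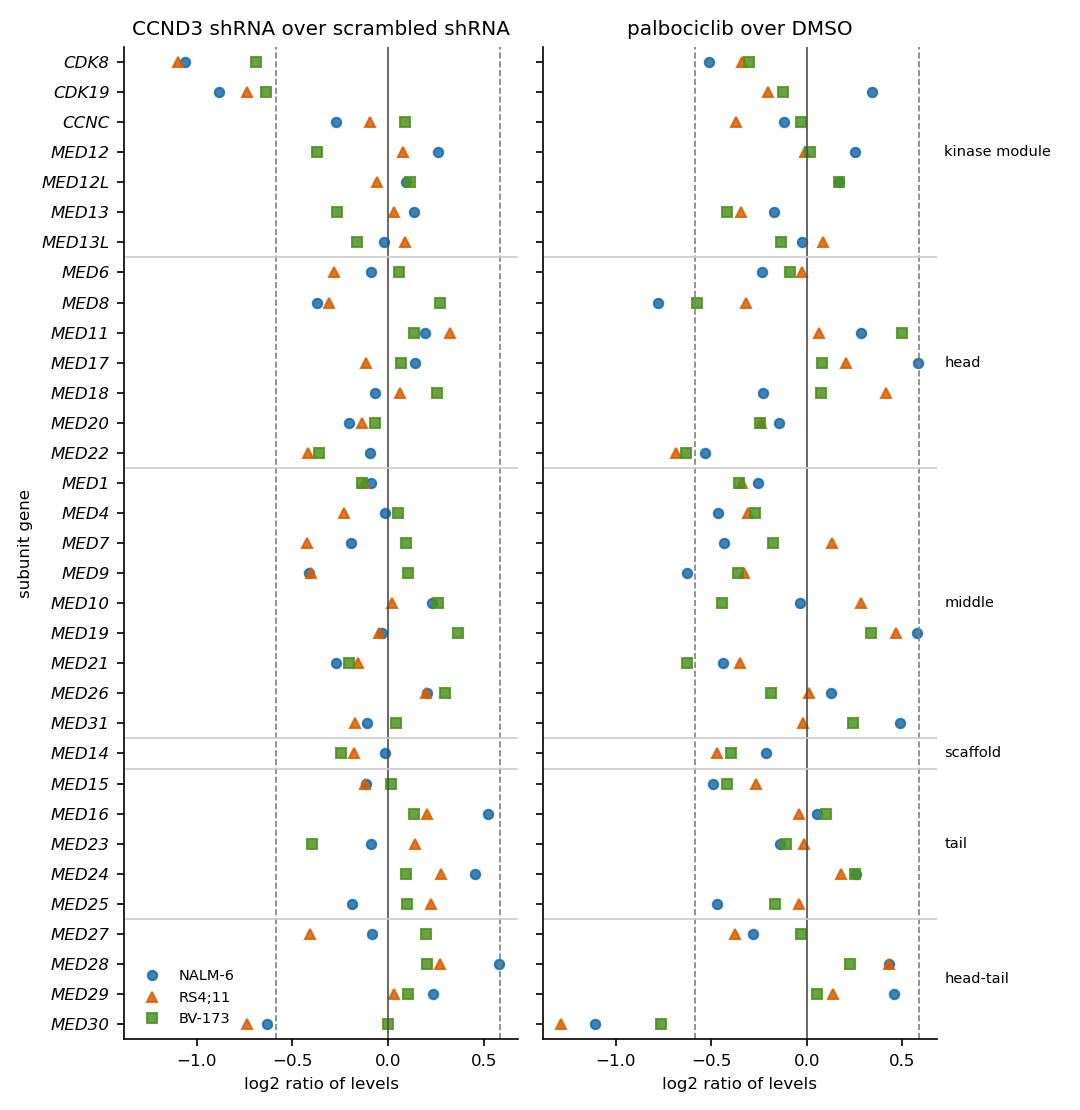
Log2 ratio of the treated to the control level of each of the 33 genes in NALM-6 as circles, RS4;11 as triangles and BV-173 as squares, for knockdown (left) and palbociclib (right), grouped by position in the complex. Dashed lines mark 1.5-fold, and all 3 lines lie past it for *CDK8* and *CDK19* after knockdown and for *MED30* after palbociclib.

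After palbociclib 2 core genes fell, *MED30* and *MED22*, and no gene of the kinase module passed. *MED30* had levels of 534 with DMSO and 248 with palbociclib in NALM-6, 828 and 339.9 in RS4;11, and 1559 and 920.3 in BV-173. It stood at 46.4%, 41.0% and 59.0% of control, past 1.5-fold in every line, and fell by 1.05 on the log2 scale (SE 0.17, 95% interval -1.50 to -0.60, adjusted p = 0.0446). *MED22*, a head subunit, had levels of 1397 and 967 in NALM-6, 917 and 571 in RS4;11, and 1356 and 875 in BV-173. It stood at 69.2%, 62.3% and 64.5% of control and fell by 0.61 (SE 0.14, interval -0.99 to -0.24, adjusted p = 0.0711). Leaving out NALM-6 or RS4;11 ended both calls (adjusted p = 0.148 and 0.130 for *MED30*, 0.173 and 0.263 for *MED22*), and leaving out BV-173 ended that of *MED22* (0.183).

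*CDK8* had levels of 1091 with DMSO and 766 with palbociclib in NALM-6, 724 and 573 in RS4;11, and 1007 and 816 in BV-173. It stood at 70.2%, 79.1% and 81.0% of control, below its control in 3 of 3 lines and past 1.5-fold in none (mean log2 ratio -0.38, SE 0.15, interval -0.77 to -0.0027, adjusted p = 0.162). *CDK19* had levels of 598 and 757 in NALM-6, 809.8 and 705 in RS4;11, and 495 and 454 in BV-173. NALM-6 was above its control at 126.6% and the other lines were below at 87.0% and 91.6%. Its mean log2 ratio was 0.0046 (interval -0.46 to 0.47, adjusted p = 0.989). *MED13* was lower in 3 of 3 lines, at 88.8%, 78.7% and 74.8% of control (adjusted p = 0.229), *CCNC* stood at 92.2%, 77.4% and 97.8% (adjusted p = 0.487), and *MED12* at 119.2%, 99.4% and 101.1% (adjusted p = 0.724).

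Apart from *MED30* and *MED22*, no core gene passed, and *MED8* came nearest to the threshold. *MED8*, a head subunit, stood at 58.3%, 80.1% and 67.1% of control (mean log2 ratio -0.56, adjusted p = 0.106). *MED21*, which pairs with MED7 in the middle, stood at 73.7%, 78.4% and 64.8% (mean log2 ratio -0.47, adjusted p = 0.119). *MED9*, another middle subunit, stood at 64.9%, 79.8% and 77.9% (-0.44, adjusted p = 0.140), and the tail gene *MED15* at 71.2%, 83.2% and 75.0% (-0.39, adjusted p = 0.158). The other direction was held by *MED19*, a middle subunit, at 148.9%, 138.3% and 126.3% of control (0.46, adjusted p = 0.121) and *MED28* at 134.7%, 134.7% and 117.2% (0.36, adjusted p = 0.178). The scaffold gene *MED14* stood at 86.3%, 72.2% and 76.1% (-0.36, adjusted p = 0.185), and *MED1*, the subunit that nuclear receptors bind, at 83.9%, 79.1% and 78.3% (-0.31, adjusted p = 0.212). The remaining 16 core genes had means between -0.35 (*MED4*) and 0.29 (*MED17*), with adjusted p of 0.188 or more.

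In single lines after palbociclib, 3 of 33 members were lower by 1.5-fold in NALM-6 (9.09%, *MED8*, *MED9* and *MED30*), beside 14.9% of all genes. In RS4;11 *MED22* and *MED30* were lower (6.25% of 32), beside 15.0%, and in BV-173 *MED21*, *MED22* and *MED30* (9.09%), beside 11.9%. No member was higher by that fold, whereas 21.4%, 16.7% and 13.6% of all genes were so in the 3 lines. Over the 3 lines, 2 of 32 members (6.25%) fell, beside 9.85% of all genes, and 0 rose, beside 8.44%. At an unadjusted p under 0.05, limma listed 8 of 32 members (25%), of which *MED19* alone was higher, beside 30.6% of all genes. A ratio under 1 in all 3 lines was seen for 17 of 32 members (53.1%), 3 in the kinase module and 14 in the core, beside 26.1% of all genes. A ratio above 1 in all 3 lines was seen for 6 members (18.8%), beside 28.3%. The median log2 ratio was -0.14 for the core and -0.10 for the kinase module, against 0.04 for all genes.

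**Figure D4:**
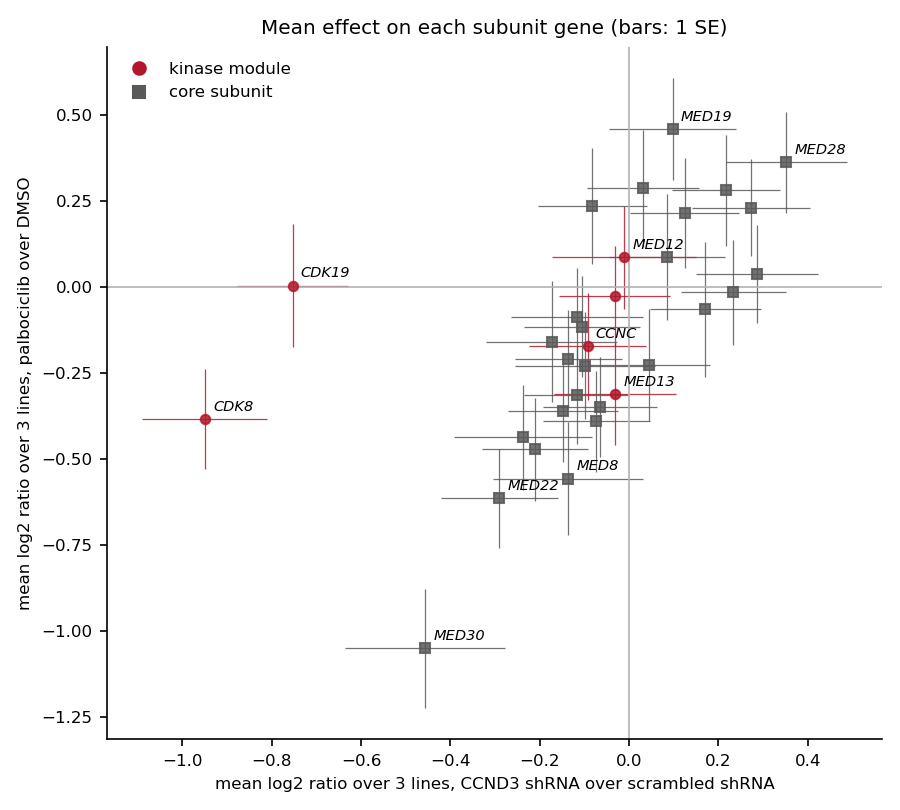
Mean log2 ratio over the 3 lines after knockdown (horizontal axis) and after palbociclib (vertical axis) for the 32 genes tested, with bars of 1 SE from limma, kinase module in red circles and core in grey squares. *CDK8* and *CDK19* lie to the left at -0.95 and -0.75, and *MED30* lies lowest at -1.05 on the palbociclib axis.

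The treatments were set against each other line by line, as the log2 ratio after knockdown less that after palbociclib. These ratios came from pairs of groups that were scaled separately. The arms also differed in vector, isolation of cells and day, and a difference between treatments cannot be told apart from these. For *CDK19* the difference was -0.76 (SE 0.20, 95% interval -1.28 to -0.23, unadjusted p = 0.0144, adjusted p = 0.165), and for *CDK8* -0.57 (SE 0.15, interval -0.95 to -0.18, unadjusted p = 0.0134, adjusted p = 0.162). For *MED30* the difference was 0.59 (SE 0.14, interval 0.23 to 0.96, unadjusted p = 0.00922, adjusted p = 0.150), the lower value being that after palbociclib. All 3 differences kept their direction in 3 of 3 lines, yet none passed over all genes, and with a variance trend in limma all 3 passed (adjusted p = 0.0654 for *CDK8* and *CDK19*, 0.0550 for *MED30*). In all, 0 of 32 members passed in this comparison, beside 0.353% of all genes with a higher and 0.173% with a lower value after knockdown, while 3 of 32 members had an unadjusted p under 0.05 (9.38%), beside 20.8% of all genes. For *CCNC* the interval of the difference was -0.32 to 0.48 and for *MED12* -0.52 to 0.32, widths that leave room for a difference in either direction. *MED22* differed by 0.32 (interval -0.02 to 0.67, adjusted p = 0.260).

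The levels of both kinases were also summed and set against each other. Per kilobase, *CDK8* and *CDK19* together stood at 443 with scrambled and 219.5 with *CCND3* shRNA in NALM-6, 304 and 157 in RS4;11, and 287 and 179 in BV-173. Cyclin C transcript in the same groups stood at 683 and 566, 408 and 382, and 269 and 286 per kilobase. The *CDK8* level per kilobase was 2.77 times that of *CDK19* with scrambled and 2.45 times with *CCND3* shRNA in NALM-6, 1.74 and 1.35 times in RS4;11, and 5.46 and 5.28 times in BV-173. With DMSO and palbociclib the ratio was 3.59 and 1.99 in NALM-6, 1.76 and 1.60 in RS4;11, and 4.00 and 3.53 in BV-173. *CDK8* was thus the more abundant transcript per kilobase in all 12 groups, and the control ratio was highest in BV-173 in both arms. These sums and ratios were not tested.

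Since *CDK8* and *CDK19* were lower together, the 250 bases before their annotated starts are shown (RefSeq, GRCh38.p14). The 8-base E2F words TTTCCCGC, TTTGGCGC, TTTCGCGC and TTTGCCGC were searched on both strands in windows from 250 bases before to 50 bases after each start, and capitals mark a match. Of the 3 starts listed for *CDK19*, the outermost is shown, as it alone held a word.
CDK8, chr13:26253879-26254128, plus strand: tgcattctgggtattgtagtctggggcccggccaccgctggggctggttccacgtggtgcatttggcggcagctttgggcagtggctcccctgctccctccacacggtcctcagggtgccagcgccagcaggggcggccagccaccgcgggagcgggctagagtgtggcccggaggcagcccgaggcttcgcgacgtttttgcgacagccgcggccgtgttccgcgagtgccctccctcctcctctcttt
CDK19, chr6:110815856-110816105, minus strand: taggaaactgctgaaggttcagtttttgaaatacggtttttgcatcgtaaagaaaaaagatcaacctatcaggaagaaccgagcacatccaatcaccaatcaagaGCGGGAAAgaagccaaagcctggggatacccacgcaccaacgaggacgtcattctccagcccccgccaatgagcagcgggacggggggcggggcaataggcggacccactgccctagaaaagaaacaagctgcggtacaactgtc
The *CDK19* window held TTTCCCGC on the opposite strand, 145 bases before the start, and the *CDK8* window held none of the words. Windows were listed for 25 of the 33 members, 30 windows in all, of which 3 held a word, in *CDK19*, *MED9* (92 bases before the start) and *MED18* (172 bases before). No window was listed for *MED6*, *MED8*, *MED13*, *MED14*, *MED21*, *MED22*, *MED28* and *MED30*, so these genes were not searched. They include both genes that fell after palbociclib, *MED30* and *MED22*. Among 15764 windows of the genes tested, 4.75% held one. A match describes letters only and is no evidence of binding.

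Other parts of the transcription machinery were read from lists of names, with the same test. Over all genes, 4.15% fell and 2.09% rose after knockdown. After knockdown, 0 of 13 transcriptional CDKs and cyclins and 0 of 12 RNA polymerase II subunits passed in either direction, and of 28 general transcription factor genes 1 fell. This was *TAF5*, a TFIID subunit, with log2 ratios of -1.05, -1.11 and -0.60 (adjusted p = 0.0742). Of 9 partners of Mediator at enhancers 4 fell, all of them genes of cohesin, the ring complex that holds sister chromatids together and connects enhancers with promoters. *SMC1A* fell by 1.01 on the log2 scale (adjusted p = 0.0742) and *STAG1* by 0.78 (adjusted p = 0.0742), both past 1.5-fold in 3 of 3 lines, and the others were *SMC3* and *RAD21*. At an unadjusted p under 0.05, limma listed 2 of the transcriptional CDKs and cyclins and 0 of the polymerase subunits, beside 21.8% of all genes. It also listed 5 of the 28 general transcription factor genes and 5 of the 9 partners of Mediator.

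After palbociclib, 5 of the 9 partners fell and 0 rose, and all 5 were cohesin genes past 1.5-fold in every line. Over all genes, 9.85% fell and 8.44% rose after palbociclib, the shares to set beside the counts of each list here. *SMC3* fell by 1.77 (SE 0.15, adjusted p = 0.0376), *RAD21* fell by 1.64 (SE 0.17, adjusted p = 0.0376) and *SMC1A* fell by 1.64 (SE 0.22, adjusted p = 0.0396). The median log2 ratio of these 9 genes was -0.98, the value of the cohesin gene *STAG2*, against -0.14 for the core of Mediator and 0.04 for all genes. The partners outside cohesin did not pass. Their means were -0.35 for *NIPBL*, 0.14 for *MAU2*, 0.06 for *EP300* and -0.25 for *CREBBP* (adjusted p of 0.211 or more). Of the 28 general transcription factor genes 7 fell and 2 rose, *TAF13* and *GTF2H5*. *TAF5* fell by 1.53 (adjusted p = 0.0379), while *TAF13*, another TFIID subunit, was past 1.5-fold upward in every line and rose by 0.71 (adjusted p = 0.0562). Of the 13 transcriptional CDKs and cyclins 1 fell, *MNAT1*, the assembly factor of the CDK7 kinase (-0.67, adjusted p = 0.0663), and of the 12 polymerase subunits 1 rose, *POLR2L* (0.71, adjusted p = 0.0999). At an unadjusted p under 0.05 after palbociclib, limma listed 3 of the 13 transcriptional CDKs and cyclins and 3 of the 12 polymerase subunits. It also listed 12 of the 28 general transcription factor genes and 5 of the 9 partners, beside 30.6% of all genes. *MNAT1*, *POLR2L*, *GTF2H5*, *STAG2*, *NIPBL*, *MAU2*, *EP300*, *CREBBP* and, after knockdown, *SMC3* and *RAD21* were named after their values were seen. In the comparison of the treatments, 0 genes of these lists passed, while an unadjusted p under 0.05 was reached by 2 of the transcriptional CDKs and cyclins, 1 polymerase subunit, 7 general transcription factor genes and 4 partners of Mediator, beside 20.8% of all genes.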

How the data were processed

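RNA-seq of 3 leukaemia cell lines was analysed from 6 deposited tables. Per the labels, the authors used SOAPnuke for filtering, Bowtie2 for mapping to hg38, RSEM for quantification and DESeq2 for the comparison of groups. Versions were not given in the sources used here. The deposited levels are a count-scale signal, 1 per group, scaled by the authors within each pair of groups; gene length was used for levels per kilobase. Columns of the authors' fold changes and p-values were not used. The log2 ratios and the percentages of control carry whatever moderation that fit applied. *MED12L*, at levels under 1, stood at 96.2% to 112.5% of control where it was listed. How far changes were drawn toward no change was not tested. Columns of per-sample values left unused numbered 0.

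Ratios of treated to control levels were taken within each table. limma 3.58.1 (R 4.3.3) tested their mean over 3 lines on 13307 genes, two-sided, with Benjamini-Hochberg adjustment and a threshold of 0.1. P-values measure the spread between lines; whether samples of a group were separate cultures does not enter. On simulated ratios for the knockdown comparison (13307 genes, 100 changed at each size), 68% of changes of 1 and 98% of changes of 2 on the log2 scale passed, and 12.2% of the genes passing were unchanged ones. These ratios were drawn independently for each gene, and fewer genes were changed than the 830 that passed in the data. The rates therefore need not hold for the real comparison. Named genes were *CCND3*, all members, and from each further list those past 1.5-fold alike in 3 lines (at most 3). A gene of the list of Mediator partners is not reported here and was left out of that list's counts. Members were taken by name, and they and the lists were proposed with earlier results of these data known. Sequences came from hg38 with GENCODE and from RefSeq. Alternatives were a pseudocount of 1, a mean level of at least 10, median centring, a variance trend, genes of 1 treatment, a 2-fold limit and leaving out each line.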

Additional observations from a re-analysis of the deposited data

How the results depend on the processing

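No paired analysis was possible because the deposited levels are 1 per group and carry no replicate numbers. For the same reason no sample could be left out, and cell lines were left out instead. The number of members passing after knockdown (2) ranged from 0 to 3 over these leave-one-out fits, after palbociclib (2) from 0 to 1, and in the comparison of treatments (0) it stayed at 0. After palbociclib the number was 5 among genes with a mean level of at least 10, adding *MED8*, *MED19* and *MED21*, and 7 with a variance trend, without *MED19* but with *MED14*, *MED15* and *MED28*. With the variance trend 3 members passed in the comparison of treatments. The palbociclib mean of *CDK19* turned from 0.0046 to -0.010 with median centring, and ranged from -0.16 (without NALM-6) to 0.11 (without RS4;11) over the leave-one-out fits. At 2-fold, 1 member was counted after knockdown in NALM-6 and in RS4;11 (*CDK8*) and 0 in BV-173, and after palbociclib 1 in NALM-6 and in RS4;11 (*MED30*) and 0 in BV-173. Smaller shifts in counts were 1 more member each: *MED30* after knockdown without BV-173, *MED8* after palbociclib with a pseudocount, and with median centring at 1.5-fold after palbociclib *MED22* in NALM-6 and *MED8* in BV-173. All genes passing after knockdown numbered 830, and 1655 with the trend, after palbociclib 2434, and in the comparison of treatments 70, against 311 with a pseudocount, 369 with the level minimum and 1507 with the trend; without NALM-6 or RS4;11 none passed after knockdown. After palbociclib all genes passing were 0 without NALM-6, 878 without RS4;11 and 843 without BV-173, and in the comparison of treatments 0 without any 1 of the lines. The cause of these shifts was not tested. With 1 level per group, the depth behind a single level is unknown.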
